A study of Mus musculus with 30 samples.

Results

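The genes of glucose uptake, glycolysis and lactate export were followed in AML12 cells, a mouse hepatocyte line, after knockdown of FoxK1, FoxK2 or both, with and without insulin. The members were a named list of 33 genes running from the glucose transporters to the lactate transporters, and they were found by matching the Ensembl identifiers of the count tables to mouse gene symbols. All 33 were among the 49089 identifiers, and 28 of them were among the 11368 genes with enough counts to be tested. Over these genes the clearest change was with insulin: 12 of the 28 rose in all 4 genotypes, led by Hk2, whose level rose 3.35-fold in Control cells. Per genotype 16 to 21 members were called up with insulin, beside 8.31% to 16.2% of all genes tested. The share of all genes that rose in all 4 genotypes was not counted. FoxK1 KD cells at basal had lower levels of 11 of the 28 members, beside 4.71% of all genes called down, and no member was called in FoxK2 KD cells at basal. In DKD cells at basal 3 members were up and 4 down, shares close to the 10.3% and 10.8% of all genes. The knockdown comparisons share their Control libraries and are not independent of each other.

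The study sequenced 30 libraries of poly(A) RNA in 8 groups. Cells received NS siRNA (Control), siRNA against FoxK1 (FoxK1 KD), siRNA against FoxK2 (FoxK2 KD) or both (DKD), were kept overnight without serum in DMEM with BSA, and were then mock treated (basal) or given 100 nM insulin for 6 h. Treatment time is labelled 0 h for basal cells, although a mock treatment is described. There were 4 libraries in 6 of the groups and 3 in Control insulin and DKD insulin. All groups share the same cell line, the starvation and the siRNA procedure, knockdown leaves part of each target transcript, and the study defines N only in general, as animals or independent experiments, without tying it to these libraries. If they were not separate cultures, p-values measure the spread between these samples, which may be technical.

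Totals ran from 2141460 to 5668270 counts per library, and the 33 genes together took 0.764% to 1.52% of them. Foxk1 had 81.4 ± 10.4 CPM (counts scaled to library size, SD, n = 4) in Control, 36.8 ± 6.43 in FoxK1 KD cells and 46.5 ± 3.43 in DKD cells at basal. Foxk2 had 140 ± 8.25 CPM in Control, 47.3 ± 3.46 in FoxK2 KD and 50.2 ± 5.69 in DKD cells. Of 13 hepatocyte markers, 11 were tested, and Hnf4a lay between 89.6 and 152 CPM. Alb reached only 2.5 to 65.2 CPM and Apoa1 and Apoa2 did not pass the count filter. The bile duct cell markers Krt19, Krt7 and Sox9 were also present, Epcam was at 0, and the endothelial list stayed at or below 0.55 CPM summed. In bulk RNA, a smaller share of one kind of cell and less RNA per cell cannot be told apart.

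Glucose enters the cell through facilitative transporters and is trapped by phosphorylation, mostly by hexokinases. The upper steps of glycolysis then spend ATP to make and split fructose bisphosphate, the lower steps return ATP and yield pyruvate, and lactate dehydrogenase and the monocarboxylate transporters turn pyruvate into lactate and move it across the membrane. Normal liver relies on the transporter Slc2a2, and insulin is a known inducer of hepatic glucose use. FoxK1 and FoxK2 are forkhead transcription factors.

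For glucose transport and pyruvate kinase, transcripts of the widespread isoforms were above those of the liver forms. At basal in Control cells, Slc2a1, which encodes the transporter GLUT1, had 32.9 ± 5.73 CPM per kb of exon length (SD, n = 4), against 0.805 ± 0.118 for the liver transporter Slc2a2. Among the first kinases, Hk1 came first with 12.2 ± 0.452 CPM per kb, followed by the ADP-dependent kinase Adpgk with 3.85 ± 0.362 and Hk2 with 2.53 ± 0.447. Pkm, the pyruvate kinase of most tissues, had 625 ± 154 CPM per kb, and the liver and red cell form Pklr 21.7 ± 1.86. The phosphofructokinase genes ran from Pfkm (50.8 ± 7.71) through Pfkl (28 ± 3.88) to Pfkp (2.81 ± 0.398 CPM per kb). Aldoa stood at 771 ± 296 CPM per kb and Aldoc at 5.91 ± 1.12. Eno1 (63.9 ± 4.48) and Eno3 (63 ± 26.1 CPM per kb) did not differ beyond their spread, and both were above Eno2 (6.18 ± 1.4).

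The other 5 members had too few counts for a test. Slc2a3, which encodes GLUT3, had 0 counts in all 30 libraries, which allows up to 0.0276 CPM over the pooled libraries by counting error alone. The insulin-responsive transporter Slc2a4 had 33 counts in total, with 0 to 3 per library. Ldhb, the heart form of lactate dehydrogenase, had 2 counts, the gluconeogenic phosphatase Fbp1 had 8, and the lactate exporter Slc16a3 had 46.

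Promoters are shown for Hk2, Pgk1 and Ldha, which rose with insulin in every genotype and come from different stages of the pathway. Each run is the 250 bases before the RefSeq start (build GRCm38.p6, 5′ to 3′ on the gene's strand), and capitals mark ACGTG on either strand, the letters at the core of hypoxia response elements. None of these bases lies in an annotated exon. The windows are chr6:82774455-82774704 on the minus strand for Hk2, chrX:106186850-106187099 on the plus strand for Pgk1 and chr7:46845554-46845803 on the plus strand for Ldha, the last lying in an intron of the longest annotated Ldha span.
Hk2: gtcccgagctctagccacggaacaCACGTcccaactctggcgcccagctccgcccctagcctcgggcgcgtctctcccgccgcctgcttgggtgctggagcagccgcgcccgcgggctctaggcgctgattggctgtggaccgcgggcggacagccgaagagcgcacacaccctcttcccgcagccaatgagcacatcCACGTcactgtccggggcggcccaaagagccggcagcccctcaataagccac
Pgk1: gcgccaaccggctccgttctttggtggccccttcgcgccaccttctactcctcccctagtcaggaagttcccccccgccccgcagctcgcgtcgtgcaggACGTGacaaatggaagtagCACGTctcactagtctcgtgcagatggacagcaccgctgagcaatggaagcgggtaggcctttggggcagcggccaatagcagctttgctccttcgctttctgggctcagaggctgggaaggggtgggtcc
Ldha: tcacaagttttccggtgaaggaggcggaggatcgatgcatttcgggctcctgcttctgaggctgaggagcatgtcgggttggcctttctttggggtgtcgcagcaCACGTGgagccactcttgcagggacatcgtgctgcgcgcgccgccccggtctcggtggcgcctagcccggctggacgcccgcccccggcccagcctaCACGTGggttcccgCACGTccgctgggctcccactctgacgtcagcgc

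The Ldha window held 3 such stretches, 2 of them inside the E-box CACGTG, while Hk2 and Pgk1 had 2 each. The reference held 49 promoters for 31 of the members, each running 250 bases before to 50 after a start. Of these 49, 20 contained ACGTG on either strand (40.8%), against 19.6% of 32851 promoters of the same length. For the 12 members that rose with insulin in all genotypes it was in 10 of 15 promoters (66.7%), from 9 of the genes. CACGTG, which contains ACGTG, was in 10.2% of the members' promoters and 7.15% of all. GCGTG was in 49% and 32.4%. The forkhead letters GTAAACA were in 1 member promoter, of Aldoc (2.04% against 3.65%). In the 15 promoters of the 12 members, GCGTG was also in 66.7%, CACGTG in 13.3% and GTAAACA in 0. The 32851 promoters were not limited to the genes tested here. These matches are a description of the letters only, several genes contribute overlapping promoters, and no binding was measured.

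Between 16 and 21 of the 28 tested members rose with insulin, depending on the genotype. The mean over the 28 tested members of the log2 level, taken relative to Control basal, was 0.00 ± 0.10 in Control basal (SD, n = 4) and 0.46 ± 0.06 in Control insulin libraries (n = 3). It went from -0.24 ± 0.07 to 0.29 ± 0.03 in FoxK1 KD cells, from -0.09 ± 0.07 to 0.46 ± 0.03 in FoxK2 KD cells and from -0.07 ± 0.06 to 0.38 ± 0.03 in DKD cells. In each genotype the insulin libraries were all above the basal libraries. The share of counts rose likewise, from 1.1% ± 0.202 to 1.42% ± 0.0969 in Control cells and from 0.806% ± 0.0415 to 1.2% ± 0.0617 in FoxK1 KD cells.

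**Figure D1:**
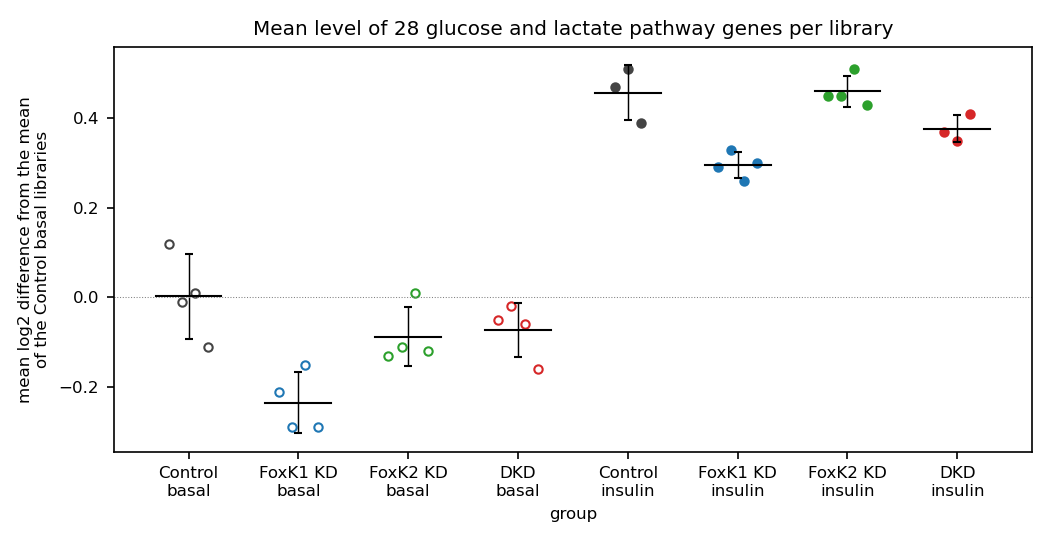
Mean log2 difference of the 28 tested members from the mean of the Control basal libraries (vertical axis) in each of the 30 libraries, by group (horizontal axis). Open points are basal and filled points insulin libraries, and bars give mean and SD; the insulin groups lie between 0.26 and 0.51 and the basal groups between -0.29 and 0.12.

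A member was called where edgeR's quasi-likelihood test, adjusted by Benjamini-Hochberg over all 11368 genes, gave an adjusted p below 0.05. Insulin gave 16 members called up in Control cells, beside 12.4% of all genes tested that were called up. It gave 20 in FoxK1 KD cells (16.2% of all genes), 21 in FoxK2 KD cells (14.4%) and 16 in DKD cells (8.31%). No member was called down. All insulin libraries lay above all basal ones for 14, 23, 21 and 17 members in this order. The shares of all genes were 12.5%, 16%, 15.2% and 14.3%. The median log2 fold change of the members was 0.35, 0.50, 0.53 and 0.46 in this order, while that of all genes lay between -0.01 and 0.01. Over all genes, the correlation of fold change with GC content differed by genotype (Spearman 0.08, 0.33, 0.24 and -0.21). With the GC and length trend removed, the medians of the members were 0.35, 0.41, 0.44 and 0.47. The members called up were then 16, 18, 19 and 18, beside 28.1%, 30.1%, 29% and 17.7% of all genes called in either direction. The 12 members called in all 4 genotypes were Slc2a1, Hk2, Adpgk, Pfkl, Pfkp, Gapdh, Pgk1, Pgam1, Pkm, Ldha, Pfkfb3 and Pfkfb4, which cover uptake, trapping, upper and lower glycolysis and lactate formation. Slc2a2, Pfkm, Aldoa, Pfkfb1 and Pfkfb2 were called in none.

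Slc2a1 (ENSMUSG00000028645.11, chromosome 4, 119108711 to 119137983, GRCm38) carried the uptake step. Its 4 Control basal libraries had 142, 110, 116 and 94.1 CPM, and its 3 Control insulin libraries 253, 183 and 204. FoxK1 KD cells went from 74.4, 56.4, 72 and 86.7 to 175, 178, 156 and 197 CPM. FoxK2 KD cells went from 104, 101, 113 and 96.1 to 228, 221, 247 and 225 CPM. All insulin libraries stood above all basal libraries of the same genotype, also in DKD cells, which had 117, 137, 116 and 111 at basal and 212, 199 and 181 after insulin. The log2 fold change was 0.89 ± 0.12 (SE) in Control, 1.28 ± 0.12 in FoxK1 KD, 1.15 ± 0.11 in FoxK2 KD and 0.71 ± 0.12 in DKD cells, and edgeR gave adjusted p-values of 5.46e-07, 3e-10, 9.59e-10 and 5.31e-05. Slc2a2 stayed between 2.75 and 8.18 CPM over all libraries and was not called.

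Hk2 (ENSMUSG00000000628.10, chromosome 6, 82725025 to 82774454), the hexokinase induced by insulin in muscle and fat, showed the greatest fold change of the members in all 4 insulin comparisons. Control cells had 17, 17.8, 12.9 and 12.7 CPM at basal and 48.3, 53.7 and 48.4 after insulin. FoxK1 KD cells had 13.1, 11.6, 14.1 and 15.8, then 36.2, 36.6, 33.4 and 34.9. The groups were far apart, and the insulin level was lower than in Control in every FoxK1 KD library. FoxK2 KD cells had 19.8, 14.4, 14.3 and 15.8 CPM at basal and 49.8, 52.5, 48.2 and 50.1 after insulin, close to Control. DKD cells had 14.9, 13.1, 13.9 and 12.1, then 37.3, 37.5 and 38. The log2 fold changes with insulin were 1.74 ± 0.12, 1.36 ± 0.12, 1.66 ± 0.11 and 1.48 ± 0.13 (SE) in Control and the FoxK1 KD, FoxK2 KD and DKD cells, with adjusted p-values of 6.63e-13, 2.96e-10, 2.17e-13 and 2.71e-10. With insulin the order of the first kinases in Control cells changed, since Hk2 reached 8.4 ± 0.522 CPM per kb and Adpgk 6.35 ± 0.518. Hk1 rose by 0.29 to 0.31 on the log2 scale in the 3 genotypes where it was called and lay between 82.1 and 137 CPM.

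In upper glycolysis the phosphofructokinase genes parted. Pfkp (ENSMUSG00000021196.13, chromosome 13, 6579768 to 6648777), the platelet form, had 34.6, 41.8, 42.4 and 31.6 CPM in Control basal and 69.3, 61.9 and 67.9 in Control insulin libraries. FoxK1 KD cells had 24.4, 32, 28.7 and 21.7 at basal and 42.5, 50, 43.2 and 45.7 after insulin. The insulin libraries of FoxK1 KD cells all lay below those of Control. In FoxK2 KD cells the values were 29, 30.8, 36.7 and 28.1, then 62.2, 55.6, 62.8 and 59.8 CPM. DKD cells had 33.9, 31.4, 24.1 and 27 at basal and 45.1, 40.2 and 46.4 after insulin. Its insulin response was 0.83 ± 0.12, 0.77 ± 0.12, 0.94 ± 0.11 and 0.59 ± 0.13 (log2 ± SE) in Control and the FoxK1 KD, FoxK2 KD and DKD cells, with adjusted p-values of 2.35e-06, 1.31e-05, 9.81e-08 and 0.00141. The liver form Pfkl rose by 0.57 to 0.89, whereas the muscle form Pfkm, at 138 to 202 CPM, was not called in any comparison. Tpi1, the triose phosphate isomerase, was called up in FoxK1 KD and FoxK2 KD cells (0.65 and 0.64) and so was the isomerase Gpi1 (0.31 and 0.35). With Control basal replicate 1 left out, both were also called up in Control cells. Tpi1 was then at 0.56 (adjusted p = 7.42e-05) and Gpi1 at 0.30 (adjusted p = 0.00826). Aldoc was called up in FoxK2 KD and DKD cells, and Aldoa, the main aldolase by level, in none. The DKD call of Aldoc was kept in only 2 of 7 fits that left out 1 library.

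In lower glycolysis, every one of the 8 members was called up in FoxK1 KD and in FoxK2 KD cells, and 5 of them in Control and 5 in DKD cells. The FoxK2 KD call of Eno3 was kept in only 2 of 8 fits that left out 1 library. Pgam1 (ENSMUSG00000011752.6, chromosome 19, 41911923 to 41918660), the phosphoglycerate mutase, had 135, 154, 165 and 154 CPM in Control basal and 266, 316 and 263 in Control insulin libraries. FoxK1 KD cells had 153, 95.7, 146 and 115, then 220, 221, 195 and 200. FoxK2 KD cells had 148, 154, 134 and 127 CPM, then 256, 279, 248 and 266. No insulin library overlapped a basal library of its genotype, and in DKD cells, with 110, 128, 112 and 129 at basal and 191, 204 and 251 after insulin, the same held. The log2 fold changes were 0.89 ± 0.11, 0.71 ± 0.11, 0.90 ± 0.11 and 0.84 ± 0.12 (SE), with adjusted p-values of 2.85e-07, 6.56e-06, 6.65e-08 and 2.56e-06. Pgk1, the phosphoglycerate kinase, rose by 0.54 to 0.81 and Gapdh by 0.43 to 0.48 over the genotypes. Eno2, the neuronal enolase, rose by 0.81, 0.96 and 0.70 in FoxK1 KD, FoxK2 KD and DKD cells and was not called in Control. With Control basal replicate 1 left out, Eno2 (0.49, adjusted p = 0.0146) and Eno3 (0.38, adjusted p = 0.0144) were called up in Control cells too. Pkm rose by 0.37 in Control, where leaving out Control basal replicate 2 or 4 or Control insulin replicate 1 ended the call, and by 0.73, 0.55 and 0.37 in FoxK1 KD, FoxK2 KD and in DKD cells. The DKD call of Pkm was lost in 4 of 7 fits that left out 1 library.

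Ldha, the lactate dehydrogenase gene, was called up with insulin in all genotypes, and the transporter gene Slc16a1 in 1 of them. Ldha (ENSMUSG00000063229.15, chromosome 7, 46841475 to 46855627) had 1060, 670, 661 and 681 CPM in Control basal libraries and 1390, 1280 and 1020 after insulin, so that 1 basal library overlapped the insulin group. FoxK1 KD cells had 470, 459, 551 and 446 CPM at basal and 838, 854, 848 and 899 after insulin. FoxK2 KD cells had 579, 570, 610 and 618, then 1180, 1220, 1190 and 1140. The knockdown groups did not overlap with their basal groups, and DKD cells had 634, 641, 611 and 607 at basal and 1050, 989 and 1130 after insulin. Insulin responses were 0.68 ± 0.11, 0.84 ± 0.10, 0.99 ± 0.10 and 0.76 ± 0.11 (log2 ± SE), with adjusted p-values of 1.66e-05, 1.97e-07, 6.17e-09 and 6.79e-06.

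Slc16a1 (ENSMUSG00000032902.1, chromosome 3, 104638668 to 104658462) encodes the monocarboxylate transporter MCT1. Control cells had 146, 204, 210 and 216 CPM at basal and 237, 193 and 226 after insulin. FoxK1 KD cells had 170, 169, 142 and 156, then 178, 206, 211 and 163, and FoxK2 KD cells 196, 176, 187 and 202, then 198, 233, 225 and 260. In these genotypes basal and insulin libraries overlapped. In DKD cells the basal libraries had 133, 151, 141 and 156 CPM and the insulin libraries 215, 259 and 188, with no overlap, a rise of 0.60 ± 0.12 (log2 ± SE, adjusted p = 0.000427). The changes of 0.17 ± 0.12, 0.25 ± 0.11 and 0.27 ± 0.11 in Control, FoxK1 KD and FoxK2 KD cells were not called (adjusted p = 0.294, 0.077 and 0.0596).

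The side enzymes act beside the main line of glycolysis. The PFKFB genes make and remove fructose 2,6-bisphosphate, the activator of phosphofructokinase, TIGAR removes it, and bisphosphoglycerate mutase opens a side branch. Pfkfb4 (ENSMUSG00000025648.17, chromosome 9, 108991778 to 109032228) was low, with 7 to 44 counts per library. It had 6.24, 6.25, 5.46 and 5.71 CPM in Control basal and 11.3, 11.7 and 8.49 in Control insulin libraries. FoxK1 KD cells had 6.34, 5.94, 6.82 and 7.49, then 10.7, 10.5, 7.62 and 10.4, and FoxK2 KD cells 7.41, 4.47, 6.27 and 6.15, then 8.6, 9.35, 9.71 and 8.19. In DKD cells 6.03, 6.98, 3.24 and 3.08 CPM became 8.78, 11.6 and 9.73. No group overlapped with its basal group, and the log2 fold changes were 0.83 ± 0.20, 0.56 ± 0.20, 0.57 ± 0.19 and 1 ± 0.22 (SE; adjusted p = 0.00252, 0.0313, 0.0255 and 0.00156). The calls in FoxK1 KD and FoxK2 KD cells were lost with DESeq2 (adjusted p = 0.0618 and 0.0509), and 2 of 8 fits without 1 library kept the call in FoxK1 KD and 5 of 8 in FoxK2 KD cells. Pfkfb3 was called in all genotypes (0.38 to 0.60), and Pfkfb1 and Pfkfb2 in none.

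Tigar (ENSMUSG00000038028.9, chromosome 6, 127085116 to 127109557) had 36.6, 38.5, 33.2 and 45.9 CPM in Control basal and 64.9, 63.2 and 57.2 in Control insulin libraries. FoxK1 KD cells went from 42.3, 46.9, 48 and 39.6 to 60.2, 63.1, 53.8 and 61.2 CPM, and FoxK2 KD cells from 44.5, 43.1, 41.9 and 39.3 to 69.7, 61.1, 72.5 and 57.6. DKD cells started higher, with 58, 52.6, 46.7 and 46.7, and had 61.2, 54.2 and 54.8 after insulin, so that the groups overlapped. The rise with insulin was 0.67 ± 0.11, 0.43 ± 0.10 and 0.63 ± 0.10 in Control, FoxK1 KD and FoxK2 KD cells (adjusted p = 1.6e-05, 0.00157 and 9.45e-06). In DKD cells it was 0.15 ± 0.11 (adjusted p = 0.372). Bpgm (ENSMUSG00000038871.5, chromosome 6, 34476207 to 34505613) had 47.6, 43.8, 50.6 and 52.3 CPM in Control basal and 62.2, 61.3 and 53.1 in Control insulin libraries. Its DKD values were 57.7, 59.9, 66.6 and 58.5 at basal and 70, 64.2 and 84.4 after insulin, while FoxK1 KD cells ranged over 50.8 to 65 and FoxK2 KD cells over 53.7 to 72.9 CPM. The insulin changes of 0.28 ± 0.10 in Control and 0.28 ± 0.10 in DKD cells passed narrowly (adjusted p = 0.0434 and 0.0492) and were lost with DESeq2 (adjusted p = 0.0517 and 0.0566), and in most fits without 1 library. The Control groups did not overlap and the DKD groups did.

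**Figure D2:**
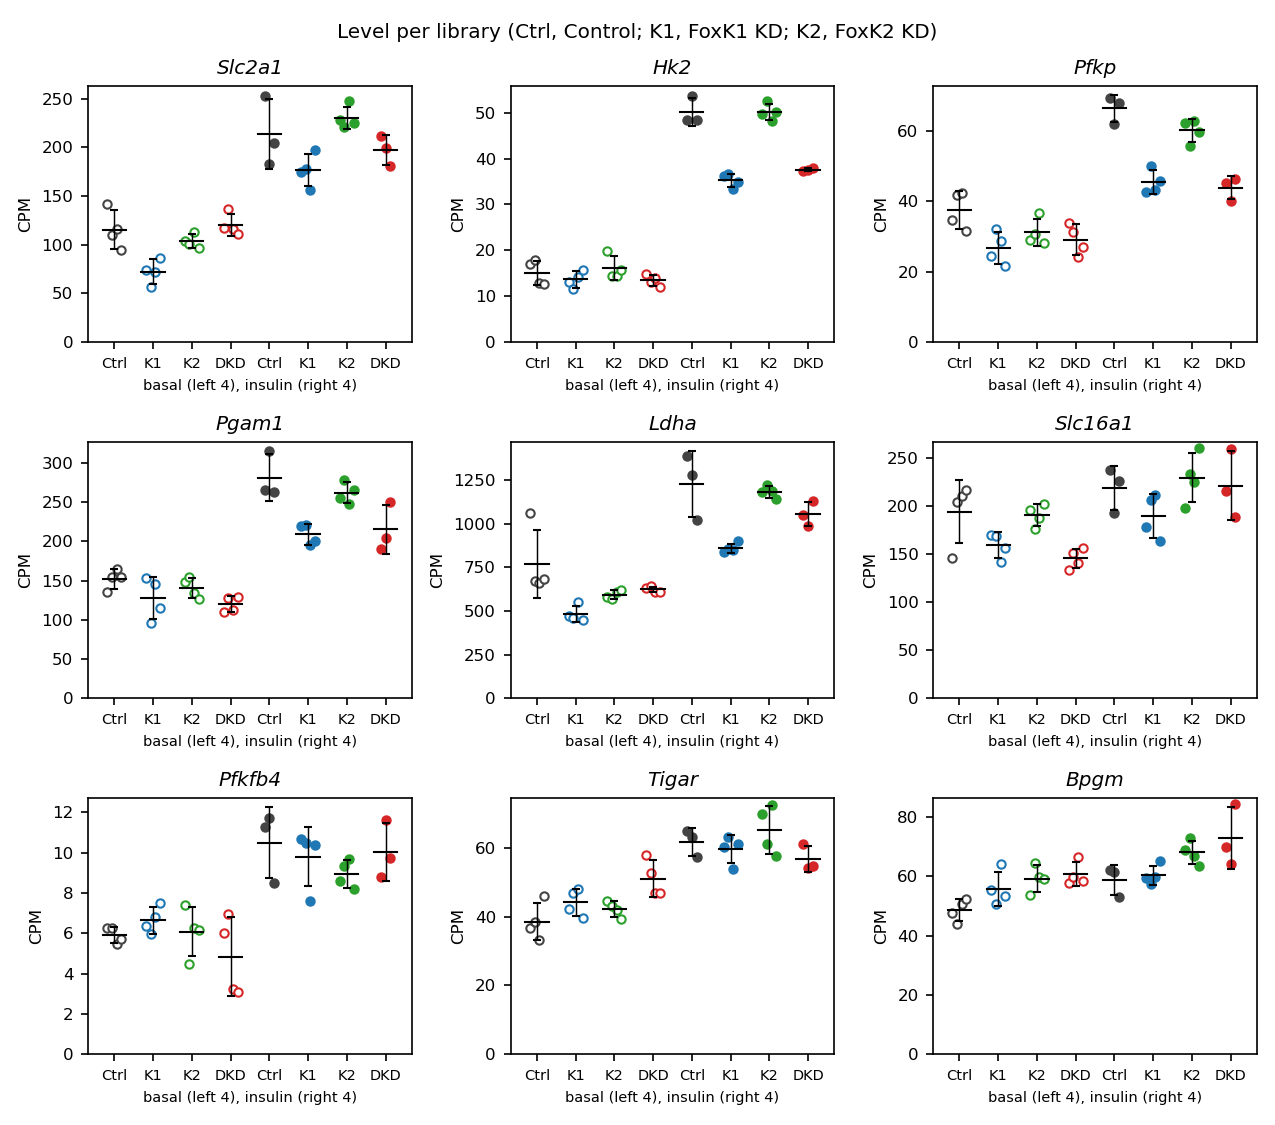
Level in CPM (vertical axes, from 0) of the 9 members given in full in each library, by group (horizontal axes). Open points are basal and filled points insulin libraries, with bars for mean and SD; Hk2 rises in all genotypes and reaches 33.4 to 38 CPM in FoxK1 KD and DKD cells against 48.2 to 53.7 in Control and FoxK2 KD cells.

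At basal, FoxK1 KD cells had lower levels along the main line of glycolysis. Of the 28 members 11 were called, all down, beside 4.71% of all genes called down, and the median log2 fold change of the members was -0.28 against -0.01 for all genes. They were the transporter Slc2a1 (-0.66 ± 0.12, SE), the upper enzymes Gpi1 (-0.35 ± 0.10), Pfkl (-0.50 ± 0.11), Pfkp (-0.50 ± 0.12), Aldoa (-0.60 ± 0.14) and Tpi1 (-0.68 ± 0.14), the lower enzymes Gapdh (-0.39 ± 0.08), Pgk1 (-0.30 ± 0.09), Eno1 (-0.30 ± 0.09) and Pkm (-0.56 ± 0.11), and Ldha (-0.67 ± 0.10). The adjusted p-values of edgeR ran from 7.93e-05 for Ldha to 0.0335 for Pgk1. Of the 3 first kinases and the 6 side enzymes tested, none was called. For Slc2a1, Pfkl, Aldoa, Tpi1, Gapdh, Eno1, Pkm and Ldha every FoxK1 KD library lay below every Control library. The same held for Pklr, which was not called. These were 9 of the 28 members, beside 4.66% of all genes.

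Control basal replicate 1 stood apart for part of these genes. It had 3520 CPM of Aldoa against 1660 to 1950 in the other Control basal libraries, 2120 against 957 to 1230 of Tpi1, 4210 against 2440 to 3100 of Pkm and 1060 against 661 to 681 of Ldha. It was the highest of the 4 libraries for 13 of the 28 members and the lowest for 8. Its summed hepatocyte markers were the highest (2740 CPM against 2190 to 2670), and so were its summed bile duct cell markers (1070 CPM against 639 to 890). In FoxK1 KD basal libraries the hepatocyte sum was 2390 to 2610 CPM and the bile duct sum 534 to 610 CPM. Of the 3 tested bile duct cell markers 2, Krt19 (-0.70 ± 0.12) and Sox9 (-0.40 ± 0.08), fell. The other one, Krt7, went the other way and was not called (0.41 ± 0.16, adjusted p = 0.11). The part of these markers in the result was not tested. Without Control basal replicate 1 there were 9 members called down, with Slc16a1 (-0.39, adjusted p = 0.0146) as a call that the full set did not give. Tpi1 moved to -0.36 (adjusted p = 0.0212), Aldoa to -0.29 (adjusted p = 0.0835), and Gpi1 to -0.17 (0.259). Eno1 was at -0.30 (0.0563), Ldha at -0.47 (0.000207), Gapdh at -0.41 (0.00128) and Slc2a1 at -0.54 (0.00288). In a fit of the 2 groups alone, whose spread rests on 8 libraries, no member was called (lowest adjusted p = 0.0572) although 14 had an unadjusted p below 0.05, all lower, and 46 of 10801 genes (0.426%) were called. The same fit without Control basal replicate 1, tried after seeing the data, called 7 members and 241 of 10925 genes (2.21%). Leaving out single other libraries also ended the calls of Gpi1 (FoxK1 KD basal replicate 1 or 4), Pgk1 (Control basal replicate 2 or 3, FoxK1 KD basal replicate 2 or 4) and Eno1 (Control basal replicate 3, FoxK1 KD basal replicate 3 or 4).

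**Figure D3:**
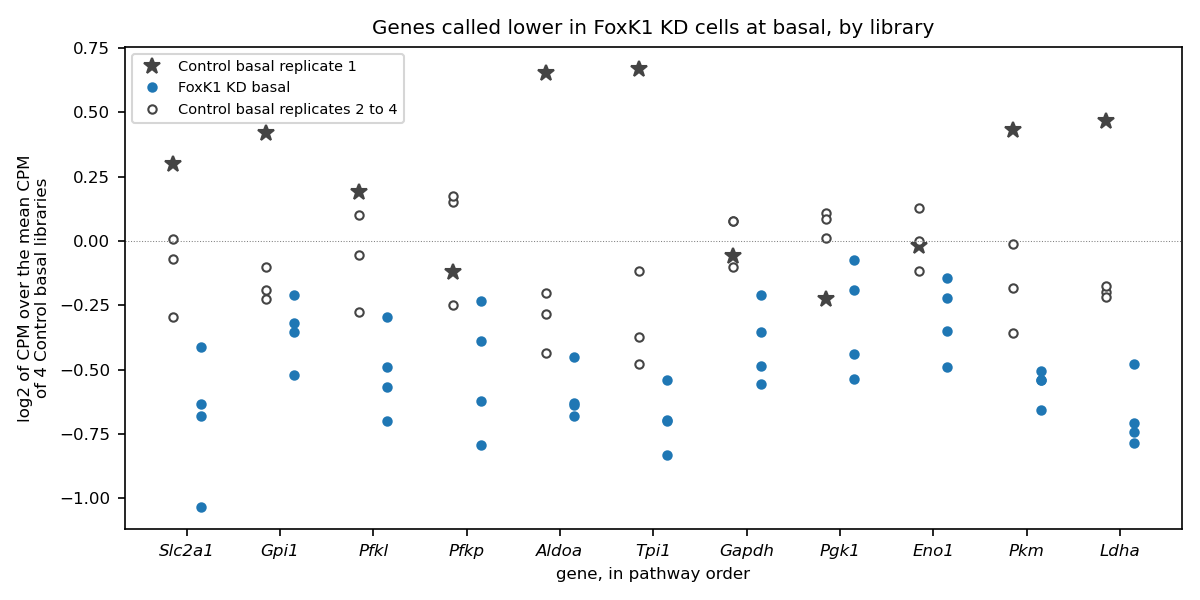
Log2 of the CPM in each basal library over the mean CPM of the 4 Control basal libraries (vertical axis) for the 11 members called lower in FoxK1 KD cells (horizontal axis, pathway order). Stars mark Control basal replicate 1, open points the other Control and filled points the FoxK1 KD libraries; for Aldoa and Tpi1 the star lies well above all other points.

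FoxK2 KD cells at basal had no member called, beside 0.378% of all genes called in either direction. Unadjusted p-values were below 0.05 for 6 members, and DESeq2 and limma-voom also called none. The values furthest from 0 were Aldoa (-0.42 ± 0.14, adjusted p = 0.196), with overlapping groups, and Ldha (-0.37 ± 0.10, adjusted p = 0.105). For Ldha every FoxK2 KD library was below every Control library, as for 2.17% of all genes. For Bpgm the FoxK2 KD libraries were all above those of Control (0.29 ± 0.09, adjusted p = 0.187), as for 2.5% of all genes.

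In DKD cells at basal members were called in both directions. Called up were Tigar (0.40 ± 0.10, SE, adjusted p = 0.00534), Bpgm (0.31 ± 0.09, adjusted p = 0.0169) and Eno1 (0.30 ± 0.09, adjusted p = 0.0114), beside 10.3% of all genes called up. Slc16a1 (-0.42 ± 0.11, adjusted p = 0.00576), Pfkp (-0.35 ± 0.12, adjusted p = 0.0353), Pgam1 (-0.34 ± 0.11, adjusted p = 0.0234) and Ldha (-0.30 ± 0.10, adjusted p = 0.0353) were called down, beside 10.8% of all genes called down. These shares, 3 and 4 of 28, are close to those of all genes, and the median of the members was -0.10. For Tigar, Bpgm and Eno1 all DKD libraries lay above Control, for Pgam1 and Ldha all lay below, and Slc16a1 and Pfkp overlapped. Over the 28 members, called or not, 3 lay all above and 3 all below, beside 9.61% and 8.78% of all genes. Without Control basal replicate 1 the value of Ldha was -0.11 (adjusted p = 0.309), and that of Slc16a1 -0.53 (adjusted p = 0.000161). Fold changes in this comparison followed the GC content of the genes (Spearman 0.47 over 11346 genes, members with a median GC of 52.4% against 49.3%). With the GC and length trend removed Eno1 was at 0.12 (adjusted p = 0.398), and 2 members were called up and 6 down. Aldoa (-0.49), Pfkl (-0.38) and Gapdh (-0.29) were among the latter. Of all genes in that fit, 16.1% were called in either direction. The median of the members was then -0.20, and 11 of the 13 members with an unadjusted p below 0.05 were lower. The share of all genes that were lower at that limit was not counted. Leaving out DKD basal replicate 1 alone left 4 members called and leaving out replicate 3 left 3, and leaving out Control basal replicate 1 or 4 gave 9. The shares of all genes called in these fits were not counted. A fit of the 2 groups alone called 3 (12.1% of all genes), and 10 without Control basal replicate 1 (30% of all genes). Tigar and Slc16a1 kept their call in all 8 fits that left out 1 library, Bpgm in 6, Pgam1 in 5 and Pfkp and Ldha in 4. Eno1 kept it in 7. The summed hepatocyte markers were 2820 to 2900 CPM in DKD basal and 2190 to 2740 in Control basal libraries. The keratins Krt18 and Krt8 weigh heavily in this sum, with means of 1390 and 741 CPM in DKD basal against 1200 and 554 in Control basal. Apob went the other way, with 446 against 568 CPM. Of the 11 markers tested, 3 were called up and 0 down. The part of these markers in the result was not tested.

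After insulin, 6 members were called lower in FoxK1 KD than in Control cells, beside 1.72% of all genes called down. These were Pfkp (-0.55 ± 0.12, adjusted p = 0.00651), Ldha (-0.52 ± 0.11, adjusted p = 0.00477), Hk2 (-0.50 ± 0.11, adjusted p = 0.00803), Pfkl (-0.48 ± 0.12, adjusted p = 0.0154), Pgam1 (-0.43 ± 0.11, adjusted p = 0.0255) and Gapdh (-0.34 ± 0.08, adjusted p = 0.0122). In each of the 6, all FoxK1 KD insulin libraries were below all Control insulin libraries. This held for 8 of the 28 members, called or not, beside 8.37% of all genes. Leaving out 1 library could end the call of Pfkl (Control insulin replicate 2, FoxK1 KD insulin replicate 3), Pgam1 (the same or FoxK1 KD insulin replicate 4), Ldha and Gapdh (Control insulin replicate 1). In DKD cells 1 member was called, Pfkp (-0.59 ± 0.13, adjusted p = 0.0109), beside 0.343% of all genes, and the call was lost without DKD insulin replicate 2. Hk2 in DKD cells was at -0.41 ± 0.12 (adjusted p = 0.0741), with all DKD libraries lower than Control. Such a separation was seen for 4 of the 28 members, beside 8.42% of all genes. FoxK2 KD cells had 0 members called with edgeR, DESeq2 and limma-voom, beside 0.0264% of all genes, with 3 members at an unadjusted p below 0.05.

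**Figure D4:**
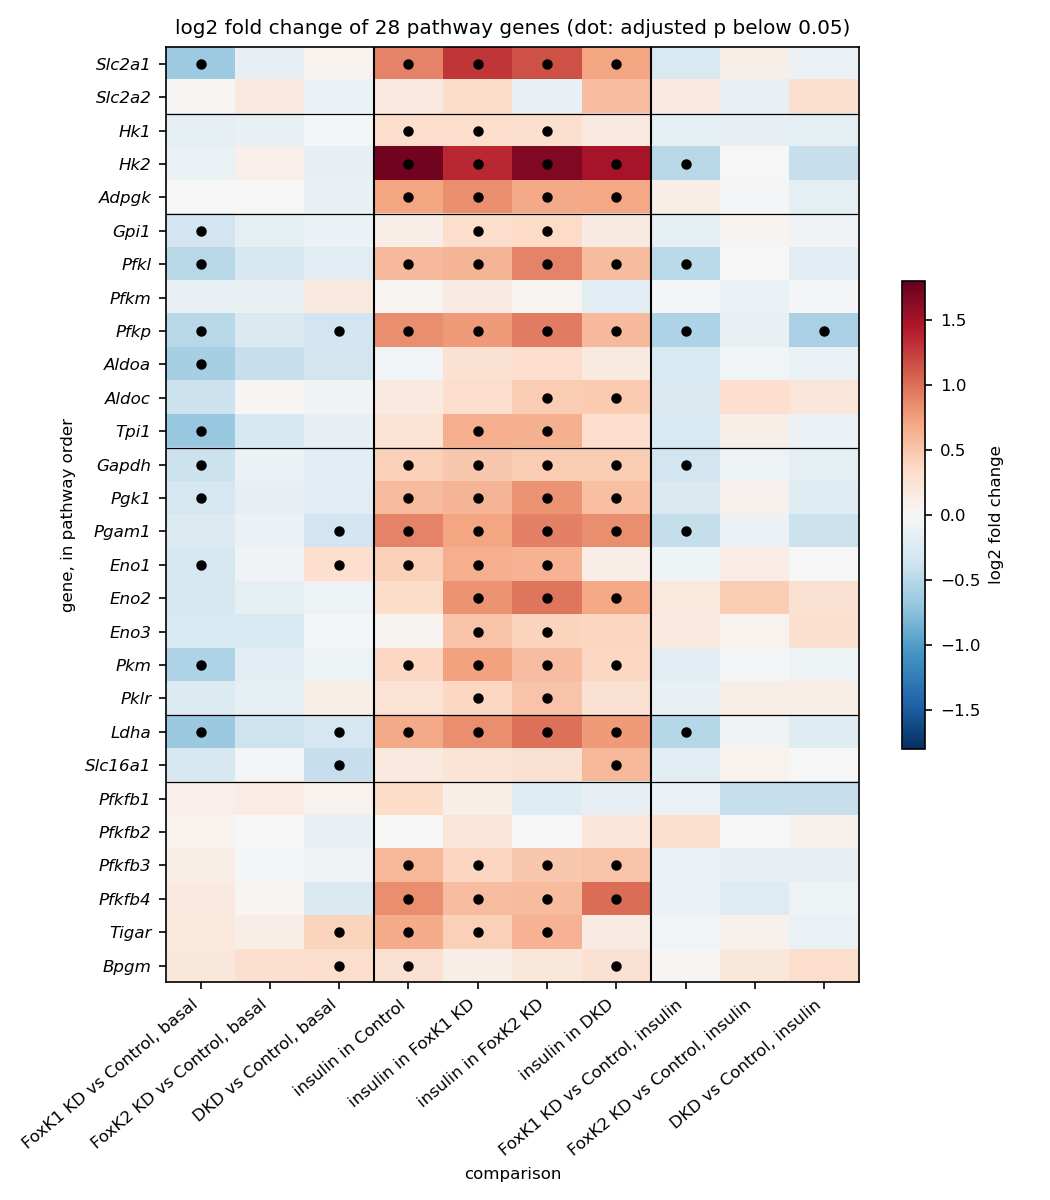
Log2 fold change (colour) of the 28 tested members (vertical axis, pathway order) in 10 comparisons (horizontal axis): knockdown against Control at basal, insulin in each genotype, and knockdown against Control after insulin. Dots mark an adjusted p below 0.05; the insulin columns hold 16, 20, 21 and 16 dots and the FoxK1 KD basal column 11.

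Whether a knockdown changed the response to insulin was tested as the difference of insulin effects. No member was called in FoxK1 KD, FoxK2 KD or DKD cells, beside 0, 0 and 1.54% of all genes, and 5, 2 and 3 members had an unadjusted p below 0.05. DESeq2 and limma-voom called none either. The response of Hk2 differed from Control by -0.38 in FoxK1 KD (95% interval -0.74 to -0.03, adjusted p = 0.341), by -0.09 in FoxK2 KD (-0.42 to 0.25, adjusted p = 0.973) and by -0.26 in DKD cells (-0.63 to 0.10, adjusted p = 0.54). That of Slc2a1 differed by 0.39 in FoxK1 KD cells (0.05 to 0.72, adjusted p = 0.323). In DKD cells the response of Tigar differed by -0.52 (95% interval -0.83 to -0.21, adjusted p = 0.0761) and that of Slc16a1 by 0.43 (0.09 to 0.76, adjusted p = 0.195). Without Control basal replicate 4 Tigar passed (-0.62, adjusted p = 0.0317), and without Control basal replicate 1 Slc16a1 did (0.53, adjusted p = 0.0353). The median SE of these differences over the members was 0.16, 0.16 and 0.17, which limits the size that could be detected.

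Around the pathway, a further list of 39 genes held other isoenzymes, gluconeogenic enzymes and regulators, of which 20 were tested. With insulin 4, 6, 4 and 6 of these rose and 2, 1, 2 and 2 fell in Control and the FoxK1 KD, FoxK2 KD and DKD cells. Of all genes, 12.4%, 16.2%, 14.4% and 8.31% were called up, and 25.4%, 31.6%, 28.1% and 16.3% in either direction. Txnip, which restrains glucose uptake, fell in all of them, from 10.1 to 2.98 CPM in Control cells (-1.72 ± 0.27, adjusted p = 1.1e-05). Its changes were -2.40 ± 0.27, -1.78 ± 0.24 and -1.92 ± 0.25 in FoxK1 KD, FoxK2 KD and DKD cells. Pgp, the phosphoglycolate phosphatase, rose by 1.18 ± 0.14 in Control and by 1.07 ± 0.14 in FoxK1 KD cells. It also rose in FoxK2 KD (0.98 ± 0.13) and DKD cells (0.87 ± 0.15). The transporter Slc2a6, at 0.268 to 4.72 CPM, rose by 1.03 ± 0.37 in Control and 1.49 ± 0.42 in FoxK1 KD cells. Its changes of 0.85 ± 0.34 and 0.96 ± 0.38 in FoxK2 KD and DKD cells were not called. At basal, 1 of the 20 rose and 2 fell with FoxK1 KD, 1 rose and 3 fell with DKD, and none was called with FoxK2 KD. Of all genes, 8.09%, 21.1% and 0.378% were called in either direction in FoxK1 KD, DKD and FoxK2 KD cells.

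Several members have near-identical copies in the genome, among which reads can be divided in an unknown way. Of 309 annotated copies, 263 resemble Gapdh and 6 Eno1. Reads counted on copies came to 0.71% to 2.07% of those counted on the members that have copies. For Gapdh alone they came to 3.76% to 7.27% of its counts. The copy Eno1b is 99.5% identical to Eno1 and had 4555 counts against 43165, and copies of Eno1 took 6.86% to 14.8% of its counts, so its values are less certain. Summed over all copies the level was 89.1 to 133 CPM in Control, FoxK1 KD and FoxK2 KD cells at basal and 168 to 259 in DKD cells at basal and in all insulin groups. Exons of Pkm overlap Gm49759 on the same strand over 15.3% of their length, and Pklr overlaps Hcn3 on the opposite strand over 22%, and whether counting used the strand is not stated.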

How the data were processed

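Values are read counts per gene, which the authors deposited without normalization. Per the labels, poly(A) libraries were made with a NEBNext kit, and the submitters' processing notes name CASAVA 1.8, STAR 2.4.2a, featureCounts and GRCm38.p4. Strand and multimapping options are not given in the sources used here. Symbols, coordinates and exon lengths came from GENCODE M21 (48435 of 49089 identifiers found). In R 4.3.3, genes were filtered with filterByExpr, scaled by TMM and fitted in 1 model of 8 groups with edgeR 4.0.16 (quasi-likelihood test, Benjamini-Hochberg over 11368 genes), and the steps were tested on simulated data. CPM used TMM-adjusted totals, and log2 levels a prior count of 2. Copies were found with blastn 2.17.0 (at least 85% identity over 50% of the copy). Members with a call in a difference of insulin effect, the 5 called members with the largest changes in DKD at basal, insulin in Control and insulin in DKD, and Hk2 were given in full. Members, lists and tests were chosen with earlier results of these data known. Replicate numbers did not pair samples (mean correlation of deviations -0.0134 over 99 pairs with the same number, against 0.00434 over 294 others). Alternatives were DESeq2 1.42.0, limma-voom 3.58.1, other filters and thresholds, GC and length correction, fits of the compared groups, a replicate block and leaving out each library. Adding copies to their parents and leaving Control basal replicate 1 out of the fits of the compared groups were added after seeing the data.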

Additional observations from a re-analysis of the deposited data

Results flagged for a closer look

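In groups of 4 libraries, a value was singled out where the gap to the nearest other library exceeded Dixon's 95% critical share of the group's range, for the 28 tested members and their mean level. This marks about 1 in 20 groups by chance, and it marked 11 of 174. Of these, 5 were Control basal replicate 1, each time the highest: Gpi1 had 710 CPM against 454 to 495 in the others, Aldoa 3520 against 1660 to 1950, Eno2 38.8 against 24.8 to 26.5, Eno3 177 against 81.3 to 94, and Ldha 1060 against 661 to 681. The mean level of the members in Control basal libraries was -0.04 ± 0.06 (SD, n = 3) without that replicate, on the scale where all 4 average 0.

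In FoxK2 KD cells after insulin, Gpi1 was 648 CPM in replicate 3 against 576 to 583, Aldoc was 21.4 in replicate 1 against 28 to 28.8, and Pgk1 was 339 in replicate 2 against 280 to 289. In FoxK1 KD cells Eno2 was 19.5 CPM in basal replicate 2 against 24.4 to 24.9, and Pfkfb4 was 7.62 in insulin replicate 3 against 10.4 to 10.7. The mean level of the members in FoxK2 KD basal replicate 3 was 0.01 against -0.13 to -0.11 in the other 3.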

How the results depend on the processing

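No called value reversed its direction under any alternative run. Of the 98 called values, 94 kept their call with DESeq2, 97 with limma-voom, 88 with GC and length trends removed, 80 in fits of the compared groups, 89 with a minimum of 1 count in any sample, 96 with copies added to the parents, all 94 that could be tested with at least 10 counts in every sample, and 48 at an adjusted p below 0.25 with a fold change above 1.5. At an adjusted p below 0.25, the members called were 18 in FoxK1 KD, 3 in FoxK2 KD and 12 in DKD cells at basal, 4 in DKD cells after insulin and 2 in the DKD difference of insulin effect, beside 26.6%, 3.59%, 43.6%, 6.66% and 9.88% of all genes. With a fold change above 1.5 as well there were 4 and 0 in FoxK1 KD and DKD cells at basal, 0 in FoxK1 KD cells after insulin, and 10, 12, 12 and 9 with insulin in Control and the FoxK1 KD, FoxK2 KD and DKD cells, beside 3.6%, 7.6%, 3.31%, 12%, 12.9%, 10.7% and 8.49% of all genes. Fits of the compared groups gave 0 in FoxK1 KD and 3 in DKD cells at basal, beside 0.426% and 12.1% of all genes. Without Control basal replicate 1 in addition they gave 7 in FoxK1 KD and 10 in DKD cells at basal, 19 with insulin in Control cells (13 with it) and 1 in the DKD difference. The shares of all genes were 2.21%, 30%, 18.7% (10% with it) and 2.07%. A minimum of 1 count in any sample gave 2 in FoxK2 KD cells at basal and 2 in DKD cells after insulin, beside 1% and 0.664% of all genes. GC and length correction gave 1 and 3, beside 1.03% and 1.7%.

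Leaving out 1 library at a time gave 8 to 12 members called in FoxK1 KD, 0 to 2 in FoxK2 KD and 3 to 9 in DKD cells at basal, 14 to 19, 18 to 20, 19 to 21 and 13 to 16 with insulin in Control and the FoxK1 KD, FoxK2 KD and DKD cells, 4 to 6 in FoxK1 KD and 0 to 1 in DKD cells after insulin, and 0 to 1 in the DKD difference. FoxK2 KD cells at basal had 1 member called without Control basal replicate 3 and 2 without replicate 4. Over these fits 669 values kept their call and 75 did not. The shares of all genes called in them were not counted. The replicate block, in a design where the numbers pair nothing, gave 11, 0 and 7 members at basal in FoxK1 KD, FoxK2 KD and DKD cells, 15, 20, 20 and 14 with insulin, and 6, 0 and 1 after insulin. For the lost calls the cause was not tested. Depth limits Pfkfb4, Slc2a2 and Pfkfb1, with 7 to 44, 10 to 37 and 15 to 42 counts per library.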
